A study of Mus musculus with 37 samples.

Results

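The 9 genes Nphs1, Kirrel, Crb2, Fat1, Magi2, Cd2ap, Tjp1, Pard3 and Trpc6 encode proteins of the slit diaphragm, and were taken by their symbols from the 32108 genes of a mouse count table. Podocytes are epithelial cells whose foot processes interlock around the glomerular capillaries. The slit diaphragm is the cell junction that bridges neighbouring foot processes and is the last layer that plasma water crosses in the kidney filter. Nephrin and its relative Neph1, encoded by Nphs1 and Kirrel, reach across the slit, and their tails bind scaffold, adaptor and polarity proteins that tie the junction to actin. Inherited loss of several of these proteins causes protein leakage into urine in humans and mice.

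Translating ribosome affinity purification (TRAP) pulls down tagged ribosomes of chosen cells together with the RNA on them. Such RNA, labelled as podocyte RNA of C57BL/6 mice, was sequenced in 36 libraries, beside 1 library of total RNA from whole kidney. The diabetic mice of the type 2 model were eNOS-/- db/db, that is without endothelial nitric oxide synthase and with the db allele of the leptin receptor on both chromosomes, and their controls were eNOS-/-, so both arms lack eNOS. This model had 5 diabetic and 5 control libraries at an age of 3 months, and 3 diabetic and 4 control libraries at 6 months. The type 1 model set mice that received streptozotocin (STZ), a toxin of insulin-producing cells, against mice that received none, with 5 and 4 libraries at 3 weeks of STZ as labelled (age 3 months) and 5 and 5 libraries at 24 weeks (age 8 months). No genotype is labelled for this model, and effects of the toxin and of diabetes cannot be told apart. The kidney library came from an eNOS-/- control of 3 months. It is labelled total RNA and the TRAP libraries polyA RNA, so the pull-down and the RNA type cannot be told apart. The deposited tables are named for a podocyte Cre line, and the labels describe neither the transgene behind the pull-down nor the origin of the replicates, so p-values reflect variation among libraries, which may be technical.

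Total counts were 6702120 to 37786025 in the TRAP libraries and 28033680 in the kidney library. The lowest total belonged to diabetic library 3 of the 6-month type 2 group, which also had the lowest podocyte markers of all. None of the defining markers of podocytes (Wt1, Synpo), proximal tubule (Lrp2, Slc34a1), thick limb (Umod), endothelium (Pecam1), smooth muscle (Acta2) or macrophages (Ptprc) was at 0 in any TRAP library. Levels of a gene are given below as counts scaled by library size (CPM) and by trimmed means of M values (TMM), and levels between genes as the deposited FPKM, which divides by gene length. Kidney CPM had no TMM scaling. The highest TRAP level was above the kidney level for Lrp2 (5406 against 5279 CPM), Umod (947 against 768), Pecam1 (60.3 against 43.8), Acta2 (128 against 35.0) and Ptprc (37.1 against 12.8). Slc34a1 stayed below it (2234 against 4336 CPM). The lowest TRAP levels of Wt1 and Synpo were 164 and 797 CPM, against 13.7 and 89.7 CPM in kidney. Called genes have an adjusted p under 0.05 in the quasi-likelihood test of edgeR, with Benjamini-Hochberg adjustment over every gene tested.

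The 4 members that stood highest over whole kidney, Crb2, Nphs1, Magi2 and Kirrel, were also those with the largest falls at 6 months of the type 2 model, and their promoters are shown for that reason. Cd2ap, which edgeR called in none of the 4 comparisons of diabetic with control libraries, is shown beside them. Each stretch runs from 250 bases before to 50 bases after the RefSeq gene start on GRCm38.p6, 5′ to 3′ on the gene's strand, and capitals mark matches to GTGGGAG (a motif of WT1) or CAGCTG (an E-box of the kind bound by TCF21) on either strand. RefSeq held promoters of all 9 genes, with 2 each for Magi2 and Pard3, and 1 window per gene was used.
Nphs1, chr7:30459808-30460107, plus strand: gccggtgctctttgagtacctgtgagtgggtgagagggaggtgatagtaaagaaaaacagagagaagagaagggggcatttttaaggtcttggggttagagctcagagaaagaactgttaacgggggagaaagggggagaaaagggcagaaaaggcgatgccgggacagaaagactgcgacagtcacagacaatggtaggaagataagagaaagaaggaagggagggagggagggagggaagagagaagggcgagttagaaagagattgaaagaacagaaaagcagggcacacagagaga
Crb2, chr2:37775999-37776298, plus strand: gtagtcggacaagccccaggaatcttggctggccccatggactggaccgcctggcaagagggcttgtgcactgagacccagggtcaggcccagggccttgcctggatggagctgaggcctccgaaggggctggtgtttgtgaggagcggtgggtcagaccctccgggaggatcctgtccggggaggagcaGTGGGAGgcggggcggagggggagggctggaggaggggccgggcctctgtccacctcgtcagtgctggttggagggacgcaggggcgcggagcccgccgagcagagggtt
Magi2, chr5:19226796-19227095, plus strand: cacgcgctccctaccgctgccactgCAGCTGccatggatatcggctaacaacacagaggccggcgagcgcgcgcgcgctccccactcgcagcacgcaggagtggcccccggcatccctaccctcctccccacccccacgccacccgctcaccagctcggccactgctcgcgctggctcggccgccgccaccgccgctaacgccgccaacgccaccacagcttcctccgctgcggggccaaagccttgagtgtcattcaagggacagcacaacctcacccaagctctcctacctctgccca
Kirrel, chr3:87174488-87174787, minus strand: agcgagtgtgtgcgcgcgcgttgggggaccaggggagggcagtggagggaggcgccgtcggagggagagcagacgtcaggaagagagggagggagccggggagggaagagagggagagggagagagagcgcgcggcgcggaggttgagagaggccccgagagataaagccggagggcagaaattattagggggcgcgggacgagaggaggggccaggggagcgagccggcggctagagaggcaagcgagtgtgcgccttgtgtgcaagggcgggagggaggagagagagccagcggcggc
Cd2ap, chr17:42876375-42876674, minus strand: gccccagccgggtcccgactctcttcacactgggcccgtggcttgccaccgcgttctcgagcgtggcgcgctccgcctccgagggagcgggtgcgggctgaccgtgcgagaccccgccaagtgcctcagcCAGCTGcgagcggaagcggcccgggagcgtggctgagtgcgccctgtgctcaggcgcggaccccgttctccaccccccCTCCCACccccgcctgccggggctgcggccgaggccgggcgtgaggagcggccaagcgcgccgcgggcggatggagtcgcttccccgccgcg
Neither motif was found in the windows of Nphs1 and Kirrel. Crb2 held GTGGGAG at -60 from the start, Magi2 held CAGCTG at -225, and Cd2ap held CAGCTG at -120 and GTGGGAG on the opposite strand at -42. Among the members not printed, Pard3 and Trpc6 each held GTGGGAG, and Fat1 and Tjp1 held neither. GTGGGAG was present in 9.73% and CAGCTG in 16.3% of 32851 promoters of the same length. No member held TAATTA (LMX1B, 5.29% of promoters) or GTAAACA (forkhead factors, 3.65%). The bases G and C made up 49.7% of the Nphs1 window, 69.3% of those of Crb2, Magi2 and Kirrel and 77.0% of that of Cd2ap, against a median of 52.7% over all promoters. The start of Nphs1 in RefSeq lies 1743 bases from the gene start in the deposited table, and that of Fat1 14761 bases. The sequence at the deposited starts of both genes was therefore not searched, and the lack of motifs holds only for the windows used. The paralog Kirrel2 lies 625 bases from Nphs1 on the opposite strand, and edgeR called it in none of the 4 comparisons (log2 change -0.18 at 6 months).

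Setting TRAP against whole kidney asks which members the pull-down enriched. Of the 9 genes, 6 were over 4 times higher in the 5 control TRAP libraries of 3 months than in the kidney library, on CPM plus 0.5, against 3.68% of 17180 genes tested. Crb2, a Crumbs protein that sets apical polarity and is needed for the slit diaphragm, was 122 times higher. This ratio ranged from 56.4 on FPKM plus 0.5 to 147 over settings. Its kidney count was 53, or 1.89 CPM with a 95% Poisson interval of 1.42 to 2.47 that covers counting error only. Nphs1 was 113 times higher, with ratios of single libraries between 78.3 and 143, and its ratio on FPKM plus 0.5 was 98.1. That Nphs1 stood above Crb2 on FPKM depends on the added 0.5. The kidney level of Crb2 was only 0.282 FPKM and that of Nphs1 2.63 FPKM, against means of 43.6 and 306 FPKM in these TRAP libraries. The scaffold Magi2, a membrane-associated guanylate kinase that binds the tail of nephrin, was 30.9 times higher and Kirrel 18.1 times.

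Tjp1 was 7.59 times higher in TRAP than in kidney, and the giant protocadherin Fat1 4.82 times, with a single-library range of 3.75 to 5.73 that crosses the 4-fold mark. Tjp1 encodes ZO-1, a scaffold of epithelial tight junctions throughout the kidney that in podocytes lies at the slit. The adaptor Cd2ap, which links nephrin to actin and is expressed widely, was 3.22 times higher. Pard3, the scaffold of the Par polarity complex found in most epithelia, was 1.32 times higher. Trpc6, the calcium channel mutated in some human focal glomerulosclerosis, was 1.24 times higher on 16 to 31 counts in the control TRAP libraries and 17 counts in kidney, so the ratio rests on few reads. With 1 kidney library there is no test.

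**Figure D1:**
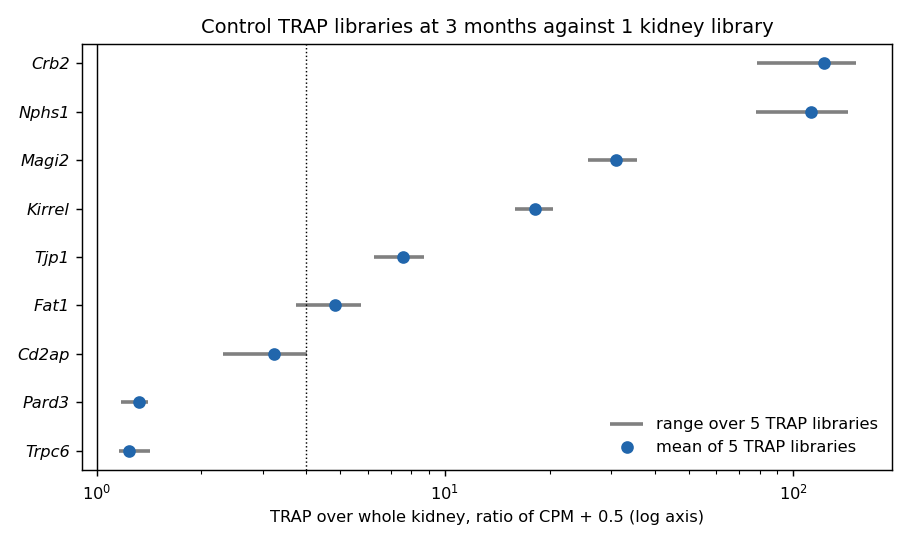
Ratio of CPM plus 0.5 in the 5 control TRAP libraries of 3 months (type 2 model) to 1 whole-kidney library, on a log axis; points are the mean, grey lines the range over single TRAP libraries, and the dotted line is 4. Crb2 and Nphs1 lie above 100, Magi2, Kirrel, Tjp1 and Fat1 above 4, and Pard3 and Trpc6 near 1.

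Per length, the members kept a nearly fixed order in the TRAP libraries. Nphs1 had the highest FPKM of the 9 in 31 of 36 libraries, with a median of 208 FPKM and a range of 22.4 to 390.1 FPKM. The other 5 libraries were all diabetic: the 3 of 6 months, library 4 of 3 months in the type 2 model and library 2 of 3 weeks in the type 1 model. In these, Tjp1 or Cd2ap came first. Tjp1 was 2nd in 33 libraries at a median of 118 FPKM, Cd2ap 3rd in 32 at 89.2 FPKM and Fat1 4th in 29 at 56.6 FPKM. Magi2 and Kirrel shared the next places at medians of 39.4 and 38.6 FPKM. Crb2 was 7th in 31 libraries at 26.6 FPKM, Pard3 8th in 34 at 7.27 FPKM and Trpc6 last in all 36 at 0.595 FPKM. In whole kidney the order was another: Cd2ap led at 32.0 FPKM, followed by Tjp1 at 17.2 and Fat1 at 15.2 FPKM, and Nphs1 was 6th at 2.63 FPKM.

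By mean CPM, Nphs1 was highest in the 4 control groups, then in the diabetic groups of 3 months, 3 weeks and 24 weeks, and lowest in the diabetic group of 6 months. Neighbours in that order differed by less than their spread (1 SD), except that the lowest group stood apart at 284 ± 167 CPM (SD, n = 3), against 743 ± 416 CPM (SD, n = 5) in the group above it. Kirrel, Crb2, Magi2 and Tjp1 were also lowest in the diabetic group of 6 months, and so were Fat1 and Pard3. Of these, only Pard3 had a gap to the next group larger than the spread. Cd2ap was lowest in the diabetic group of 24 weeks, at 343 ± 147 CPM (SD, n = 5), and Trpc6 in the diabetic group of 3 weeks.

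In the type 2 model at 6 months, 7 of the 9 genes were called lower in diabetic libraries, and none was called higher. In all, 22.9% of the 17180 genes tested were called in this comparison and 11.7% were called lower. The falls were largest for Nphs1 (5.22-fold) and Magi2 (4.51-fold), followed by Crb2 (3.04-fold), Kirrel (2.35-fold), Tjp1 (1.89-fold), Fat1 (1.51-fold) and Pard3 (1.48-fold). Cd2ap and Trpc6 were not called. For 6 members, all lower, no diabetic library reached the lowest control, which held for 16.0% of all genes in the lower direction. The median log2 change of the members was -0.92, against -0.01 over all genes.

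Among the adhesion proteins, Nphs1 (chromosome 7, 30458315 to 30487223) had 328, 425 and 99.4 CPM in diabetic libraries 1 to 3, against 1245, 1570.3, 1655 and 1521 CPM in the 4 controls. The lowest control was nearly 3 times the highest diabetic library. The log2 change was -2.39 (SE 0.39, adjusted p = 0.000576), or 5.22 times lower. Kirrel (chromosome 3, 87078593 to 87174747) had 158, 214 and 105 CPM in diabetic libraries, against 340.5, 378, 427 and 364 CPM in controls. The groups did not overlap, and the log2 change was -1.23 (SE 0.19, adjusted p = 0.000343).

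Crb2 (chromosome 2, 37776249 to 37799103) had 90.7, 135 and 31.5 CPM in diabetic libraries, against 234, 270.5, 309 and 241 CPM in controls. It too fell without overlap, with a log2 change of -1.61 (SE 0.34, adjusted p = 0.00377). Crb2 overlaps Dennd1a on the opposite strand, which had a mean count of 1533 in TRAP, and reads of both cannot be told apart if counting ignored strand, a setting not given in the sources used here. Fat1 (chromosome 8, 44935447 to 45052257) had 821, 545 and 659 CPM in diabetic libraries, against 748, 1126, 1379.6 and 880.0 CPM in controls. Its groups overlapped, and the adjusted p of its log2 change of -0.60 (SE 0.21, adjusted p = 0.0498) was just under the threshold. It was not called without control library 2, 3 or 4 or without diabetic library 2 or 3. Nor was it called with RLE or upper quartile size factors, with 18S and mitochondrial genes left out, with a filter at 10 CPM, by limma on FPKM (-0.34), or in fits of only the groups compared or of all 36 libraries.

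Among scaffolds and adaptors, Magi2 (chromosome 5, 19227036 to 20704792) had 133, 217 and 75.3 CPM in diabetic libraries, against 664, 598, 705 and 622 CPM in controls. The control libraries lay close together and far above the diabetic ones, with a log2 change of -2.17 (SE 0.32, adjusted p = 0.000254). Tjp1 (chromosome 7, 65296165 to 65371239) had 505, 749.9 and 319 CPM in diabetic libraries, against 1005, 886, 1168 and 945 CPM in controls. Its log2 change was -0.92 (SE 0.24, adjusted p = 0.0118), and it was not called without diabetic library 3 (-0.67) or in fits of only the groups compared or of all 36 libraries (-0.92 each). Cd2ap (chromosome 17, 42792951 to 42876424) had 332, 479 and 274 CPM in diabetic libraries, against 556, 476, 481 and 450.0 CPM in controls. Diabetic library 2 lay inside the range of the controls, and the log2 change of -0.43 (SE 0.23, adjusted p = 0.19) was not called, although it was called, at -0.68, without that library.

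Pard3 (chromosome 8, 127063893 to 127612286) had 85.7, 84.3 and 75.3 CPM in diabetic libraries, against 128, 107, 111 and 146 CPM in controls. The fall was small but without overlap, at -0.57 (SE 0.14, adjusted p = 0.00946), and limma on FPKM did not call it (-0.29). Trpc6 (chromosome 9, 8544196 to 8680565) had 2.59, 1.46 and 4.89 CPM in diabetic libraries, against 3.37, 1.69, 1.89 and 2.14 CPM in controls. These levels stand for 28 to 64 counts in diabetic libraries and 32 to 63 counts in controls, the groups overlapped, and the change of 0.39 (SE 0.51, adjusted p = 0.607) turned to -0.15 without diabetic library 3.

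**Figure D2:**
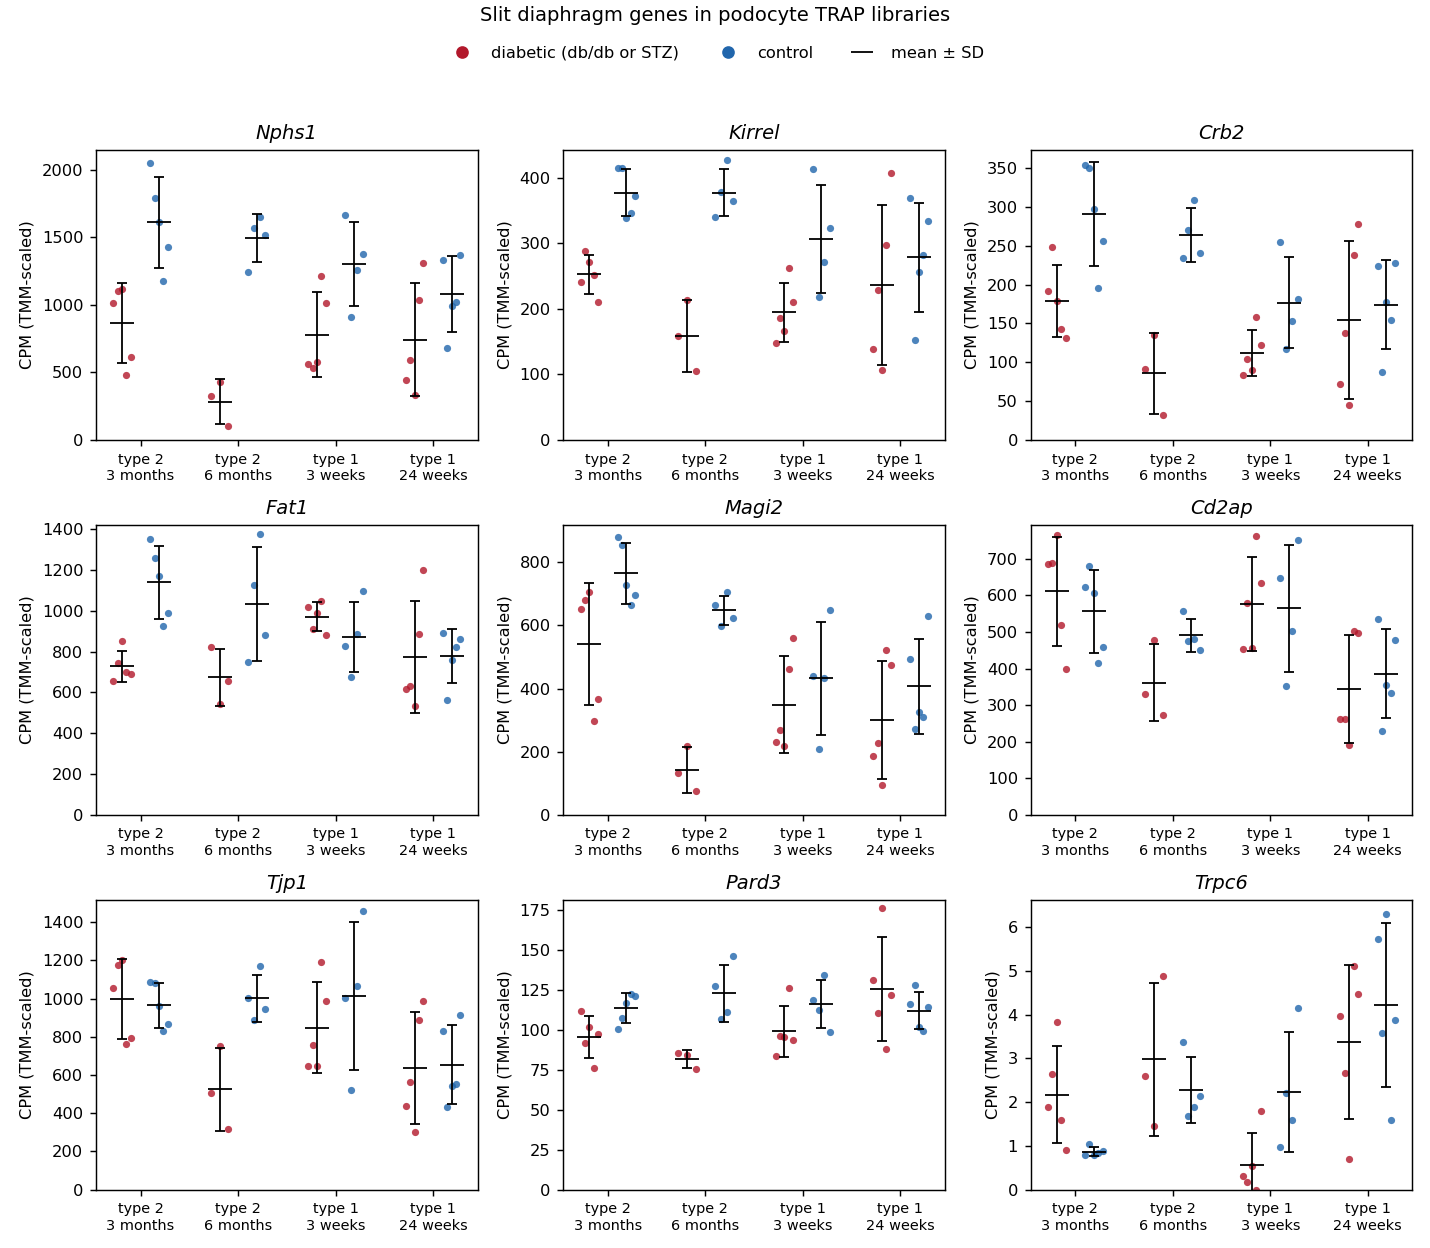
Levels of the 9 genes in CPM (TMM-scaled), 1 point per TRAP library, for diabetic (red, left) and control (blue, right) libraries of the 4 comparisons; bars are mean ± SD, cut at 0. At 6 months of the type 2 model Nphs1 was at 284 ± 167 CPM in diabetic libraries and 1498 ± 177 CPM in controls, while Cd2ap was at 362 ± 105 CPM in diabetic libraries and 491 ± 45.7 CPM in controls.

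Other podocyte markers moved in the same libraries. Of 20 podocyte markers that are not among the 9 genes, 16 were called lower and none higher, with a median log2 change of -1.36. Their summed level was 5336 to 19841 CPM in diabetic libraries, against 30799 to 36575 CPM in controls. In bulk RNA, fewer podocytes in a sample and less RNA per podocyte cannot be told apart. With the mean log2 CPM of these 20 markers as a covariate, none of the 9 genes was called, and 137 of all genes were: Nphs1 had -0.77, Magi2 -0.86, Kirrel -0.57 and Crb2 -0.18. The score itself did not overlap between the groups, at 7.05 to 8.90 in diabetic libraries and 9.45 to 9.72 in controls.

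Markers of other cells differed as well. Parietal epithelial markers were called higher in 6 of 7 cases, mesangial and smooth muscle markers in 5 of 8 and macrophage markers in 4 of 9, while 7 of 12 proximal tubule markers were called lower. The summed macrophage markers were at 153 to 252 CPM in diabetic libraries, against 67.9 to 115 CPM in controls. Those of mesangium and smooth muscle were at 246 to 725 CPM in diabetic libraries, against 143 to 184 CPM in controls, and those of parietal cells at 265 to 511 CPM in diabetic libraries, against 139 to 196 CPM in controls. Proximal tubule markers summed to 3122 to 7619.7 CPM in diabetic libraries, against 10513 to 12907 CPM in controls. Of 9 endothelial markers 2 were called lower and 1 higher, with sums of 338 to 483 CPM in diabetic libraries, against 712 to 868 CPM in controls. The median log2 change of that list was 0.33, with 3 of 9 negative, so the lower sum does not stand for most of its genes. That sum holds Plat, whose level followed that of Nphs1 (Pearson r 0.96 over the 36 libraries). Of 6 distal markers 1 was called lower, with sums of 822 to 1619 CPM in diabetic libraries, against 1201 to 1448 CPM in controls. The part of these cells in the falls of the 9 genes was not tested.

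At 3 months of the type 2 model, the adhesion genes Kirrel and Fat1 were called lower and no member higher, so 2 of 9, where 3.99% of all genes were called and 1.96% were called lower. Nphs1, Kirrel and Fat1 had no overlap between groups, all lower, as did 3.6% of all genes. The median log2 change of the members was -0.51, against 0.04 over all genes.

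Kirrel had 241, 288, 271, 252 and 211 CPM in diabetic libraries 1 to 5, against 415, 415, 338, 347 and 372 CPM in controls. Every diabetic library was below every control (-0.59, SE 0.15, adjusted p = 0.0331). Fat1 had 655, 747, 850.5, 699 and 690.3 CPM in diabetic libraries, against 1354, 1261, 1169, 927 and 989.9 CPM in controls, again without overlap (-0.65, SE 0.18, adjusted p = 0.039). Both calls were close to the threshold: Kirrel was no longer called without diabetic library 1, 4 or 5 or without control 1, 2, 4 or 5, and Fat1 without any single library except diabetic library 3 or control 4. With limma on the FPKM neither was called.

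Nphs1 had 1012, 1099.8, 1115, 478 and 615 CPM in diabetic libraries, against 2052, 1793, 1611, 1175 and 1428 CPM in controls. The ranges did not overlap, and the log2 change of -0.91 (SE 0.30, adjusted p = 0.106) was not called by edgeR. DESeq2 called it, at -0.89, and edgeR called it in a fit of only the groups compared, at -0.89, and with the podocyte score as covariate, at -0.57. Magi2 had 652, 682, 706, 298 and 368 CPM in diabetic libraries, against 879, 855, 727, 664 and 697 CPM in controls, with overlap (-0.51, adjusted p = 0.326). Diabetic libraries 4 and 5 were the lowest of their group for Nphs1, Magi2, Crb2, Tjp1 and Cd2ap.

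The same pair of libraries stood apart in markers of other cells. Diabetic libraries 4 and 5 had summed macrophage markers of 272 and 144 CPM and summed mesangial and smooth muscle markers of 773 and 491 CPM. The other 3 diabetic libraries had 41.5 to 50.6 CPM and 201 to 269.7 CPM, against 56.4 to 77.2 CPM and 132 to 167 CPM in the 5 controls. Podocyte markers summed to 18877 and 21171 CPM in this pair, to 31291 to 34417 CPM in the other diabetic libraries and to 29245 to 42961 CPM in controls, and none of the 20 was called by edgeR (3 at an unadjusted p under 0.05, 2 by DESeq2). Without both libraries, an alternative chosen after seeing the data, Kirrel (-0.51) and Fat1 (-0.61) were not called, and Trpc6 was called higher (1.68). The part of other cells in these values was not tested. Of the marker lists over all 5 libraries, 2 of 8 mesangial and 2 of 7 parietal markers were called higher, and 2 of 12 proximal tubule and 1 of 9 endothelial markers lower. EdgeR called no macrophage marker (4 at an unadjusted p under 0.05, 3 by DESeq2) and no distal marker (1 at an unadjusted p under 0.05, 1 by DESeq2). Sums in diabetic libraries and controls were 146 to 333 and 138 to 198 CPM for parietal, 3566 to 9277 and 9326 to 13578 CPM for proximal tubule, 415 to 643 and 655 to 958 CPM for endothelial, and 971 to 1277 and 1108 to 1434 CPM for distal markers. The endothelial sum holds Plat here as at 6 months, and the median log2 change of that list was -0.21, with 6 of 9 negative.

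Cd2ap and Tjp1 had log2 changes near 0 at 3 months. Cd2ap averaged 612 ± 149.5 CPM in diabetic libraries and 557 ± 113 CPM in controls (SD, n = 5 each; log2 change 0.13, adjusted p = 0.827). Tjp1 averaged 998 ± 208 CPM in diabetic libraries and 965 ± 118 CPM in controls (0.04, adjusted p = 0.952). Crb2 had 132 to 249 CPM in diabetic libraries, against 196 to 354 CPM in controls, with overlap (-0.71, adjusted p = 0.177). Pard3 averaged 95.7 ± 13.2 CPM in diabetic libraries and 114 ± 9.51 CPM in controls (-0.26, adjusted p = 0.282).

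Trpc6 was the member with the highest log2 change at 3 months. It had 1.88, 2.65, 3.82, 1.59 and 0.914 CPM in diabetic libraries, against 0.782, 1.04, 0.795, 0.828 and 0.888 CPM in controls. Diabetic library 5 lay inside the control range, and the other 4 above it. The log2 change of 1.31 (SE 0.43, adjusted p = 0.1) was not called by edgeR and was called by DESeq2, on 18 to 157 counts in diabetic libraries and 16 to 31 counts in controls.

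In the type 1 model at 3 weeks, none of the 9 genes was called by edgeR, where 6.5% of 16279 genes were. DESeq2 called 1 of them, Trpc6, and over all 18317 genes it called 1132 higher and 675 lower. Of the 9 genes, 3 had an unadjusted p under 0.05 (20.8% of all genes). No member had groups apart, which held for 3.46% of all genes in the lower and 4.67% in the higher direction. Nphs1 had 559, 536, 576, 1212 and 1014 CPM in STZ libraries, against 1663, 912, 1259 and 1379 CPM in controls. STZ libraries 1, 2 and 3 lay below all controls and libraries 4 and 5 among them, for a log2 change of -0.77 (SE 0.33, adjusted p = 0.172). Kirrel had 148, 186, 166, 263 and 211 CPM in STZ libraries, against 413, 218, 271 and 323 CPM in controls, and overlapped through library 4 alone (-0.68, SE 0.30, adjusted p = 0.181). Crb2 followed at 83.9 to 159 CPM in STZ libraries, against 117 to 255 CPM in controls (-0.69, adjusted p = 0.325).

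Trpc6 at 3 weeks had 0.318, 0.183, 0.542, 0 and 1.80 CPM in STZ libraries, against 0.985, 2.20, 1.59 and 4.16 CPM in controls. The STZ libraries held 0 to 18 counts and the controls 13 to 78. The library with 0 counts allows a level of up to 0.227 CPM, the value of 3 counts there. STZ library 5 alone reached into the control range. The log2 change of -2.06 (SE 0.78, adjusted p = 0.124) was not called, and without STZ library 5 it was -3.02 and called. Magi2 (-0.34), Tjp1 (-0.28), Pard3 (-0.26), Fat1 (0.13) and Cd2ap (0.00) had adjusted p of 0.43 or more.

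Podocyte markers at 3 weeks summed to 15122 to 28932 CPM in STZ libraries, against 15055 to 32395 CPM in controls, with none of 20 called by edgeR (2 at an unadjusted p under 0.05, 0 by DESeq2). With their score as a covariate Nphs1 (-0.68), Kirrel (-0.57) and Crb2 (-0.54) were called, against changes of -0.77, -0.68 and -0.69 without it. Over all 16279 genes that fit called 817 higher and 786 lower, against 1058 called in either direction without the score. Macrophage markers were called higher in 5 of 9 cases (90.6 to 282 CPM in STZ libraries, against 44.5 to 98.1 CPM in controls), parietal markers in 3 of 7 (222 to 346 CPM in STZ libraries, against 148 to 222 CPM in controls) and mesangial markers in 2 of 8 (193 to 560.4 CPM in STZ libraries, against 181 to 399 CPM in controls). Proximal tubule markers were called lower in 7 of 12 cases (5473 to 9757 CPM in STZ libraries, against 11492 to 17987 CPM in controls). Endothelial and distal lists each held 1 called higher, of 9 and 6. Sums in STZ libraries and controls were 739.8 to 833 and 574 to 1099.6 CPM for endothelial, and 1497 to 2707 and 1244 to 2619 CPM for distal markers. STZ libraries 1, 2 and 3, the lowest for Nphs1, had the highest macrophage sums of their group (204 to 282 CPM). Their part in the values of the 9 genes was not tested.

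At 24 weeks of the type 1 model none of the 9 genes was called by edgeR or DESeq2, none had an unadjusted p under 0.05, and no member's groups were apart. Of all genes, 0.897% were called and 10.7% had an unadjusted p under 0.05, and groups were apart for 1.54% in the lower and 1.86% in the higher direction. The spread within groups was wide. Nphs1 had 443, 592, 331, 1039 and 1309.9 CPM in STZ libraries, against 1334, 681, 995, 1024 and 1367 CPM in controls. STZ libraries 1, 2 and 3 lay below all controls and libraries 4 and 5 among them (-0.57, SE 0.31, adjusted p = 0.561). Magi2 had 186, 227, 95.4, 521 and 475 CPM in STZ libraries, against 495, 273, 326, 309.8 and 629.6 CPM in controls (-0.46, SE 0.39, adjusted p = 0.789), with the same 3 STZ libraries low.

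Pard3 had another order at 24 weeks: STZ library 3, the lowest of its group for the 8 other members, was the highest for Pard3 at 176 CPM. Pard3 averaged 126 ± 32.7 CPM in STZ libraries and 112 ± 11.6 CPM in controls (SD, n = 5 each; 0.15, adjusted p = 0.845). The log2 changes of Kirrel (-0.26), Crb2 (-0.20), Cd2ap (-0.19), Tjp1 (-0.06) and Fat1 (-0.03) had standard errors of 0.19 to 0.36. Trpc6 had its highest levels of the study here, with 0.691 to 5.12 CPM in STZ libraries and 1.59 to 6.31 CPM in controls (-0.34, adjusted p = 0.937).

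Podocyte markers at 24 weeks summed to 7580.3 to 30117 CPM in STZ libraries, against 14677 to 32470.4 CPM in controls, with 0 of 20 called by edgeR (2 at an unadjusted p under 0.05, 0 by DESeq2). EdgeR called none of the macrophage (3 at an unadjusted p under 0.05, 1 by DESeq2), mesangial (1 at an unadjusted p under 0.05, 0 by DESeq2), parietal (4 at an unadjusted p under 0.05, 1 by DESeq2) and endothelial (2 at an unadjusted p under 0.05, 0 by DESeq2) markers. Of the others, 1 of 12 proximal tubule markers was called lower and 1 of 6 distal markers higher. Sums in STZ libraries and controls were 123 to 227 and 75.3 to 135 CPM for macrophage, 186 to 337 and 156 to 251 CPM for mesangial, and 215 to 456 and 179 to 260.2 CPM for parietal markers. Proximal tubule markers summed to 5587 to 10335 and 9323 to 13867 CPM, endothelial markers to 585 to 767 and 533 to 669 CPM, and distal markers to 1375 to 3157 and 1179.8 to 2003 CPM. Their part in the values of the 9 genes was not tested.

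**Figure D3:**
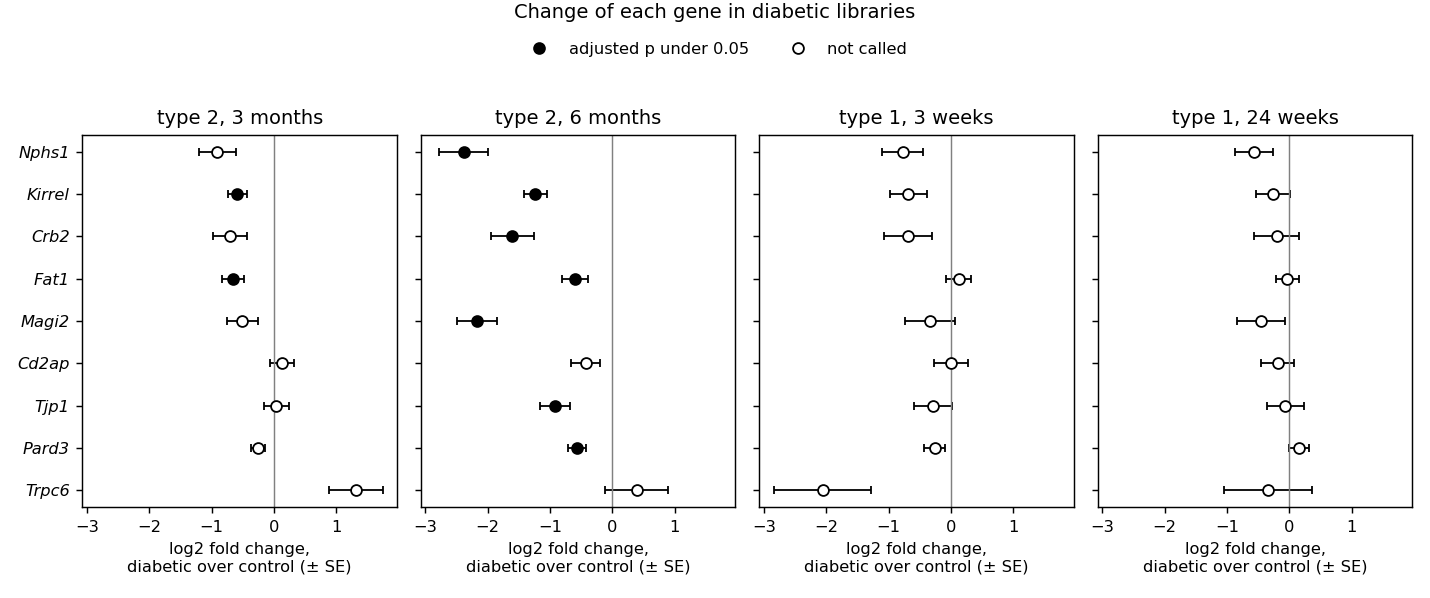
Log2 fold change, diabetic over control, with its standard error for the 9 genes in the 4 comparisons; filled points have an adjusted p under 0.05. At 6 months of the type 2 model 7 genes are filled, at 3 months Kirrel and Fat1, and in the type 1 model none; Trpc6 points to higher levels at 3 months (1.31) and to lower levels at 3 weeks (-2.06).

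Whether the changes differed between ages or models was tested as a difference of changes. For 6 against 3 months of the type 2 model, edgeR called 0 members and 0.0% of all genes, and 5 members had an unadjusted p under 0.05, where 18.9% of all genes did. These were Magi2 (-1.67, SE 0.40, adjusted p = 0.108), Nphs1 (-1.48, SE 0.47, adjusted p = 0.148), Tjp1 (-0.96, SE 0.31, adjusted p = 0.149), Crb2 (-0.90) and Kirrel (-0.65). DESeq2 called Magi2, Nphs1 and Tjp1, and over all 16279 genes it called 249 higher and 326 lower. Without diabetic library 2 of 6 months edgeR called all 5, and without diabetic library 4 of 3 months Magi2. Counts over all genes are not given for these fits without 1 library. Without both diabetic libraries 4 and 5 of 3 months edgeR called Magi2, Nphs1 and Tjp1. Over all 16774 genes that fit called 1159 higher and 931 lower. Fat1 had log2 changes of -0.60 at 6 months and -0.65 at 3 months, a difference of 0.06 (SE 0.27). For 24 against 3 weeks of the type 1 model, edgeR and DESeq2 called 0 members and none had an unadjusted p under 0.05. EdgeR called 0.0% of all genes there, and 6.71% had an unadjusted p under 0.05.

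Between the late time points of the models, type 2 minus type 1, edgeR called 0 members and 0.438% of all 18511 genes tested, while 6 members had an unadjusted p under 0.05, as did 15.1% of all genes. The difference in log2 change was -1.83 for Nphs1 (SE 0.52, adjusted p = 0.0834), -1.73 for Magi2 (SE 0.58, adjusted p = 0.14) and -0.72 for Pard3 (SE 0.22, adjusted p = 0.107). DESeq2 called Nphs1 and Magi2, and edgeR called Nphs1 without diabetic library 2 of 6 months. Between the early time points edgeR called 0 members, against 0.94% of all genes, and 2 had an unadjusted p under 0.05, as did 14.0% of all genes. Trpc6 had a difference of 3.36 (SE 0.90, adjusted p = 0.0563) and was called by DESeq2, without STZ library 5 or control 3 of 3 weeks, and without diabetic libraries 4 and 5 of 3 months. Fat1 had a difference of -0.79 (SE 0.27, adjusted p = 0.157). The models also differ in how diabetes arose, in the labelled lack of eNOS and, at the late points, in age.

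Ratios of members within a library do not depend on library size. They may still depend on the mix of cells, which was not tested. Over whole kidney, Nphs1 stood 113 times and Cd2ap 3.22 times higher in TRAP, and Magi2 30.9 and Tjp1 7.59 times. The pairs were chosen after their values were seen, so these are descriptions with no test. The FPKM of Nphs1 over that of Cd2ap was 1.01, 0.909 and 0.371 in diabetic libraries of 6 months, against 2.29, 3.37, 3.52 and 3.46 in controls. At 3 months it was 1.51, 1.63, 1.49, 0.943 and 1.58 in diabetic libraries, against 3.36, 2.70, 2.72, 2.89 and 3.18 in controls. The ratio was thus at most 1.63 in the 8 diabetic libraries of this model and at least 2.29 in its 9 controls.

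In the type 1 model the ratio of Nphs1 to Cd2ap was 1.26, 0.948, 1.29, 1.63 and 1.63 in STZ libraries of 3 weeks, against 2.62, 2.64, 2.56 and 1.87 in controls, without overlap. At 24 weeks it was 1.73 to 2.69 in STZ libraries, against 2.55 to 3.14 in controls, with overlap. The FPKM of Magi2 over that of Tjp1 was 0.154 to 0.189 in diabetic libraries of 6 months, against 0.393 to 0.440 in controls. At 3 months it was 0.255 to 0.402 in diabetic libraries, against 0.492 to 0.528 in controls, and the 3-week and 24-week groups overlapped. Nphs1 over Magi2 overlapped at 6 months, at 2.82 to 5.27 in diabetic libraries and 4.01 to 5.62 in controls, and did not overlap at 3 months, at 3.32 to 3.57 in diabetic libraries and 3.78 to 5.00 in controls. Crb2 over Fat1 overlapped at 6 months, at 0.111 to 0.576 in diabetic libraries and 0.522 to 0.728 in controls. At 3 weeks it did not overlap, at 0.192 to 0.352 in STZ libraries and 0.387 to 0.719 in controls. Nphs1 over Kirrel did not overlap at 6 months, at 1.34 to 2.93 in diabetic libraries and 5.17 to 5.90 in controls. Nor did it at 24 weeks, at 3.66 to 4.94 in STZ libraries and 5.10 to 6.32 in controls, and it overlapped at 3 months and 3 weeks. Nphs1 over the podocyte marker Wt1 was 0.468 to 0.710 in diabetic libraries of 6 months, against 0.733 to 1.22 in controls. Over Synpo it was 0.171 to 0.261 in these diabetic libraries, against 0.352 to 0.478 in controls. Both of these ratios overlapped at 3 months and 24 weeks. At 3 weeks Nphs1 over Wt1 was 0.668 to 1.036 in STZ libraries and 1.040 to 1.525 in controls, barely apart, and Nphs1 over Synpo overlapped.

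**Figure D4:**
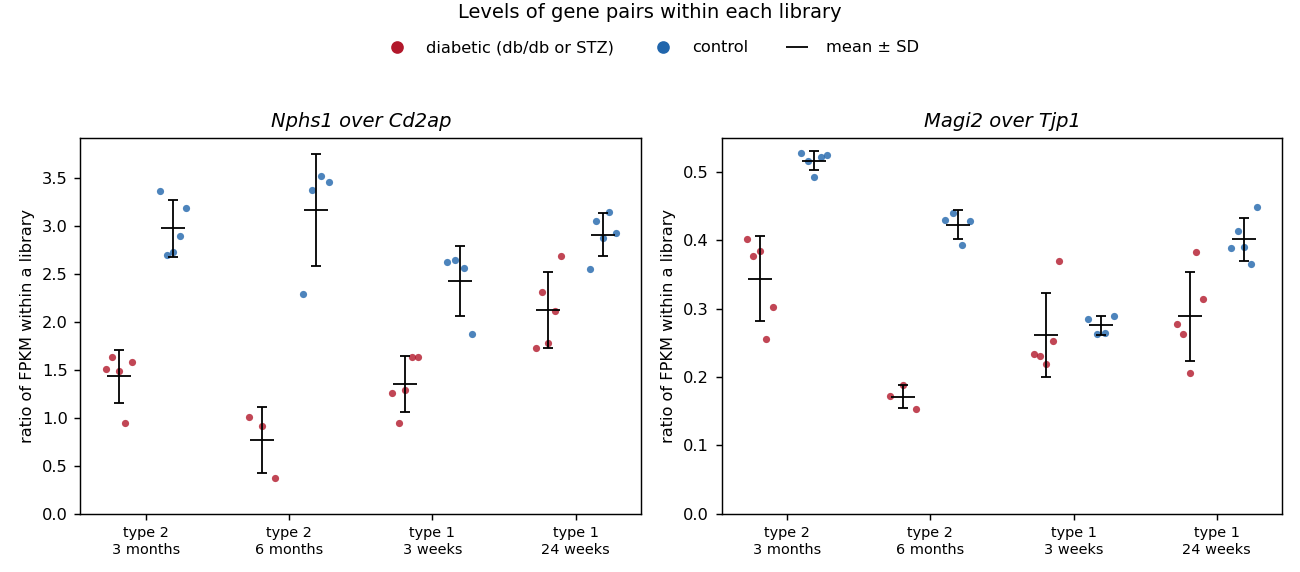
Ratio of FPKM of Nphs1 to Cd2ap and of Magi2 to Tjp1 within each TRAP library, for diabetic (red, left) and control (blue, right) libraries; bars are mean ± SD. Nphs1 over Cd2ap was at most 1.63 in the diabetic libraries of 3 months and at least 2.70 in their controls.

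Levels of most members followed each other across libraries. As a description over the 36 TRAP libraries, which share groups, depth and the mix of cells, deviations from group means of log2(CPM + 1) had a Pearson r of 0.95 between Kirrel and Crb2, 0.93 between Nphs1 and Crb2, 0.96 between Magi2 and Tjp1 and 0.92 between Cd2ap and Tjp1. Pard3 had r of -0.07 to Nphs1 and -0.42 to Fat1. Against the podocyte marker score, r of these deviations was 0.94 for Magi2, 0.94 for Tjp1, 0.92 for Nphs1, 0.87 for Cd2ap, 0.53 for Fat1 and -0.22 for Pard3. Outside the 9 genes, the closest to Nphs1 by Pearson r of log2(CPM + 1) over the 36 libraries, among 9335 genes with a mean of at least 10 CPM, were Thsd7a (0.97), Enpep (0.97), Ptpro (0.96), Plat (0.96) and Podxl (0.95). Thsd7a encodes a foot process protein that is an autoantigen in human membranous nephropathy, Enpep aminopeptidase A, Ptpro a receptor phosphatase of podocytes, Plat the tissue plasminogen activator and Podxl the sialomucin podocalyxin. Plat is also on the list of endothelial markers, and Thsd7a, Ptpro and Podxl are on that of podocyte markers. For Trpc6 the highest r was 0.69, and with 0 to 157 counts per library no gene is named.

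**Figure D5:**
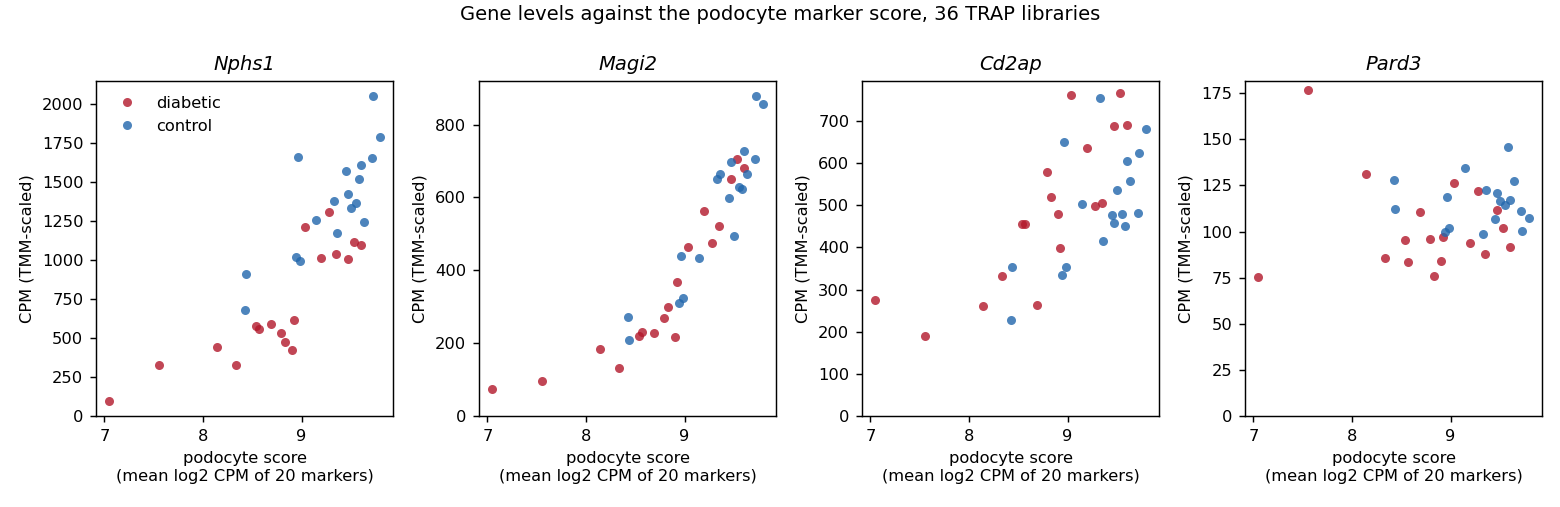
Levels of Nphs1, Magi2, Cd2ap and Pard3 in CPM against the mean log2 CPM of 20 podocyte markers, 1 point per TRAP library, diabetic in red and control in blue. Nphs1 and Magi2 rise with the score over its range of 7.05 to 9.79, Cd2ap less tightly, and Pard3 stays between 75.3 and 176 CPM.

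Other genes of the junction were read from 4 lists, by count. Of 15 paralogs of the members tested at 6 months of the type 2 model, 2 were called lower and 2 higher, with a median of 0.54. Pard3b, the second Par3 gene, was 26.4 times higher in TRAP than in kidney and fell to 236 ± 130 CPM in diabetic libraries, against 609.9 ± 66.4 CPM in controls (SD, n = 3 and 4; -1.36, adjusted p = 0.00309). Trpc1 fell (-0.89). Tjp3, which encodes ZO-3 and had a ratio of TRAP to kidney of 0.65, rose to 29.2 ± 11.3 CPM in diabetic libraries, against 11.3 ± 1.25 CPM in controls (1.38, adjusted p = 0.00393). EdgeR called no paralog at 3 months (3 at an unadjusted p under 0.05, 1 by DESeq2) or at 24 weeks (1 at an unadjusted p under 0.05, 0 by DESeq2), and 1 of 13 at 3 weeks, Trpc1 (-1.23).

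Of 25 adaptor and signalling genes at 6 months, 5 were called lower and 5 higher, with a median of -0.07. Ptpro fell to 229.6 ± 145 CPM in diabetic libraries, against 1239 ± 245 CPM in controls (-2.42, adjusted p = 0.000715). The cytoskeletal protein gene Ddn (-1.77) and the phospholipase gene Plce1 (-1.44), mutated in a human nephrotic syndrome, also fell, and the phospholipase gene Plcg1, whose product binds phosphorylated nephrin, rose (1.26). Ptpro and Plce1 are also among the 20 podocyte markers. At 3 months 1 of 25 was called, the scaffold gene Iqgap1, which rose to 473 ± 69.3 CPM in diabetic libraries, against 256 ± 40.0 CPM in controls (0.87, adjusted p = 0.0038). In the type 1 model Rcan1, an inhibitor of calcineurin, rose at 3 weeks to 198 ± 40.2 CPM in STZ libraries, against 81.9 ± 11.3 CPM in controls (1.24, adjusted p = 0.000184). It was also the 1 gene of the list called at 24 weeks (159.9 ± 22.6 CPM in STZ libraries, against 95.4 ± 15.0 CPM in controls; 0.74, adjusted p = 0.0205). Cdh5, a cadherin of endothelium, was the other gene called at 3 weeks (1.13).

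Of 15 genes of polarity complexes at 6 months, 5 were called lower and 1 higher, with a median of 0.01. Mpp5, which encodes the Crumbs partner PALS1, fell to 171 ± 71.7 CPM in diabetic libraries, against 442 ± 65.0 CPM in controls (-1.35, adjusted p = 0.00248), and the Par6 gene Pard6b fell (-0.75). Lin7a and Lin7b were called lower at very low levels. Lin7b had 0 counts in all 3 diabetic libraries, which allows up to 0.121 to 0.376 CPM there, against 0.467 ± 0.122 CPM in controls. The atypical protein kinase C gene Prkcz was the 1 polarity gene called at 3 months (-0.50, adjusted p = 0.013). EdgeR called no polarity gene in the type 1 model at 3 weeks (2 at an unadjusted p under 0.05, 0 by DESeq2) or at 24 weeks (3 at an unadjusted p under 0.05, 0 by DESeq2).

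Of 12 tight junction genes at 6 months, 1 was called lower and 3 higher, with a median of 0.19. Cldn5, which encodes a claudin of endothelium and podocytes and was 40.4 times higher in TRAP than in kidney, fell to 43.6 ± 30.6 CPM in diabetic libraries, against 163 ± 33.7 CPM in controls (-1.87, adjusted p = 0.00561). Cgn, which encodes the junction protein cingulin, rose to 93.9 ± 41.5 CPM in diabetic libraries, against 25.5 ± 21.3 CPM in controls (1.90, adjusted p = 0.0151), and Ocln (0.86) and F11r (0.47) rose. EdgeR called none of the 12 at 3 months (1 at an unadjusted p under 0.05, 0 by DESeq2) or at 24 weeks (4 at an unadjusted p under 0.05, 0 by DESeq2). At 3 weeks Cgn rose to 163 ± 63.4 CPM in STZ libraries, against 47.3 ± 24.8 CPM in controls (1.76, adjusted p = 0.0204). Cldn1, a claudin that is also among the parietal cell markers, rose to 32.2 ± 7.04 CPM in STZ libraries, against 14.1 ± 4.64 CPM in controls (SD, n = 5 and 4).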

How the data were processed

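The authors deposited raw read counts per gene and FPKM per gene for 36 TRAP libraries and 1 whole-kidney library, and no column was left unmapped. Per the submitters' processing notes, reads were handled with cutadapt, FastQC, STAR and featureCounts and the build mm9 is named, while the gene coordinates in the deposited table match GRCm38 (99.98% of 31871 genes overlap), so positions are given on GRCm38. The deposited FPKM equal counts over gene length times 1 scale per library for 99.998% of 501285 values checked, within 1%.

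Each model was fitted with edgeR 4.0.16 (R 4.3.3) on counts with TMM factors, filterByExpr and a quasi-likelihood test over all its groups, which left 17180 genes in the type 2 and 16279 in the type 1 model; differences between models used all groups. Alternatives were DESeq2 1.42.0, limma 3.58.1 on log2(FPKM + 1), other size factors and filters, fewer or more groups, the podocyte score, the replicate number and each library left out. The fits were tested on simulated counts. The closest replicate pair differed by 15.1 times Poisson noise. Correlations used log2(CPM + 1), and tables and plots were made with Python 3.11.15, pandas 2.3.3 and matplotlib 3.10.9. All 9 genes are described; of each list the up to 4 called genes with the lowest p are named, of the genes most like Nphs1 the first 5. Some genes and motifs of the lists are not reported here. The genes, lists and tests were chosen with earlier results of these data known.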

Additional observations from a re-analysis of the deposited data

How the results depend on the processing

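Under alternatives other than leaving out 1 library, the 7 members called at 6 months of the type 2 model became 5 to 8, except 0 with the podocyte score as covariate, which turned Cd2ap to 0.38, Tjp1 to 0.0653 and Trpc6 to -0.13. Without the covariate, genes called lower over all genes numbered 1011 (of 15676, only the groups compared) to 2248 (of 18964, DESeq2). With it they numbered 58 of 17180. At 3 months, where 2 members were called, DESeq2 called 4, limma on FPKM 0 and the fit of all 36 libraries 1. The fit of only the groups compared and the covariate fit called 3 each (Nphs1 added). The fit without diabetic libraries 4 and 5 called 1. Over all genes, the main fit called 348 higher and 337 lower of 17180, DESeq2 716 and 547 of 16279, and limma 262 and 206 of 17180. The fit of only the groups compared called 446 and 416 of 15270, and the covariate fit 707 and 544 of 17180. The 36-library fit called 239 and 250 of 18511, and that without libraries 4 and 5 called 172 and 246 of 16774. At 3 weeks (0 members called) DESeq2 and the 36-library fit called 1 each and the covariate fit 3. Over all genes, DESeq2 called 1132 higher and 675 lower of 18317, and the 36-library fit 1004 and 632 of 18511. The covariate fit called 817 and 786 of 16279. For the change with time in the type 2 model (0 members called) DESeq2 called 3, as did the fit without diabetic libraries 4 and 5. Over all genes, DESeq2 called 249 higher and 326 lower of 16279, and the other fit 1159 and 931 of 16774. For the late difference between models (0 members called) DESeq2 called 2, and over all 15723 genes it called 295 higher and 228 lower. For the early one (0 members called) DESeq2 and the fit without diabetic libraries 4 and 5 called 1 each and the covariate fit 2. Over all genes, DESeq2 called 232 higher and 230 lower of 18072. The fit without libraries 4 and 5 called 72 and 179 of 18347, and the covariate fit 319 and 370 of 18511. The cause of these differences was not tested.

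The covariate also turned, at 24 weeks, Kirrel to 0.075, Crb2 to 0.16, Fat1 to 0.15, Cd2ap to 0.17, Tjp1 to 0.33 and Pard3 to -0.015, the time difference of Crb2 to 0.18 and the late difference of Tjp1 to 0.072. Without both 24-week libraries of lowest podocyte markers, an alternative chosen after seeing the data, Tjp1 was at 0.011. Using only the groups compared, Cd2ap at 3 weeks was at -0.00375.

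Leaving out 1 library at a time gave 5 to 7 members called at 6 months, 0 to 2 at 3 months, 0 to 1 at 3 weeks, 0 to 5 for the change with time in the type 2 model and 0 to 1 for each difference between models, with counts over all genes not given here. Log2 changes then crossed 0 for Trpc6 at 6 months (-0.15 to 0.72), Tjp1 at 3 months (-0.0289 to 0.13), Cd2ap at 3 weeks (-0.13 to 0.19) and, at 24 weeks, Crb2 (-0.51 to 0.0346), Fat1 (-0.23 to 0.0747), Tjp1 (-0.26 to 0.11) and Pard3 (-0.0099 to 0.27). Of all recomputed log2 changes of single members, 989 kept their sign and their side of the threshold and 33 turned sign, and of the others, which kept their sign, 43 lost a call and 36 gained one.

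Replicate numbers did not pair the libraries: deviations of same-numbered libraries correlated at -0.07 to 0.14, and not every library was closest to its own number. With the replicate number as a block, 8 members were called at 6 months (Cd2ap added), 1 at 3 months (Kirrel), 0 at 24 weeks, 1 at 3 weeks (Nphs1), 1 for the change with time in the type 2 model (Magi2) and 0 for the other differences, and Cd2ap at 3 weeks was at -0.043. Of all 17180 genes, the block fit called 1955 higher and 2149 lower at 6 months and 243 and 292 at 3 months. For the change with time it called 27 and 44. Of all 16279 genes, it called 735 higher and 467 lower at 3 weeks and 79 and 78 at 24 weeks.

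Depth limits Trpc6 most, at 0 to 157 counts per library, and the 6-month diabetic group has 3 libraries, 1 of them the shallowest. The kidney comparison rests on 1 library.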
